A study of Mus musculus with 6 samples.

Results

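The genes described here are 10 components of necroptosis and pyroptosis, which are Mlkl, Ripk1, Ripk3, Zbp1, Gsdmd, Casp1, Casp4, Casp8, Nlrp3 and Pycard. They were found by their symbols among the 18182 genes of the deposited tables, and 10 of 10 were found. The cells were LLC cells, a mouse Lewis lung carcinoma line that carried red fluorescent protein (LLC-RFP), grown under the skin of wild type C57BL/6 mice and sorted by their red fluorescence from the primary cancer sites. In one group the mice received LLC-RFP alone (LLC alone, 3 libraries). In the other they received LLC-RFP with BMSCs, bone marrow-derived mesenchymal stem cells (LLC with BMSCs, 3 libraries). The comparison asks which of these genes differed in cancer cells taken from tumours that had started with BMSCs. All 6 libraries came from 1 cancer line, and pooling of animals and whether each library was a separate mouse were not given. The methods of the study name 6-week-old female C57BL/6 mice for its tumour allografts and do not repeat this for the mice sequenced. The p-values therefore measure only the spread between libraries, which may be technical.

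Necroptosis and pyroptosis are lytic forms of programmed cell death in which the cell membrane is opened from within. In necroptosis, death receptors act through the kinase RIPK1 and the nucleic acid sensor ZBP1 acts on its own. Both routes lead to the kinase RIPK3, which phosphorylates the membrane-disrupting protein MLKL, while caspase-8 cleaves the kinases and holds the pathway back. In pyroptosis, sensors such as NLRP3 assemble with the adaptor ASC, the product of Pycard, into an inflammasome that activates caspase-1. Caspase-11, encoded by mouse Casp4, binds bacterial lipopolysaccharide directly. Either caspase cleaves gasdermin D, the product of Gsdmd, whose amino-terminal part forms membrane pores, and caspase-1 also matures interleukin-1β. Many of these genes are known to be induced by interferons, and several are most abundant in myeloid cells.

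Between 33476347 and 46189113 fragments were counted on genes per library. For each gene the authors deposited an estimated count of fragments, used here for tests, and an FPKM value (fragments per kilobase of transcript, scaled to the library total), used here for levels. Of the cancer cell markers, Krt8 was at 90.3 to 113 FPKM. Krt18 was low but differed, at 0.03 to 0.13 FPKM in LLC alone and 0.63 to 0.69 FPKM in LLC with BMSCs. Epcam was at 0.04 FPKM or below in each library, and the lung genes Nkx2-1 and Sftpc did not exceed 0.06 FPKM. LLC alone replicate 3 stood apart by transcript length, since its genes lay a median of 0.31 (log2) above their 6-library mean in the fifth of genes with the shortest transcripts and at -0.37 in the fifth with the longest. Each named member and pathway gene that passed the filter described next was also tested without LLC alone replicate 3 and with each library's length trend removed. Tests were made with edgeR's quasi-likelihood test on 13353 genes that passed its filter on low counts, with p values adjusted by Benjamini-Hochberg across them.

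Of the 10 genes, 9 passed the filter and Pycard did not. At an adjusted p under 0.05, 7 genes were higher in LLC with BMSCs, where 31.5% of the genes tested were called higher, and 2 were lower, where 31.3% were called lower. In either direction 62.9% of the genes tested were called. Ripk3 and Zbp1 entered the test only through their counts in LLC with BMSCs, so that the 7 calls are a description of these genes and not a share to be compared with that background. The FPKM ranges of the groups did not overlap for 10 of the 10 genes, 8 of them higher and 2 lower in LLC with BMSCs. That too was common, since the ranges lay apart for 70.6% of the genes tested, 37% higher and 33.7% lower. At an adjusted p under 0.001 and a log2 change of 1 or more in size, 6.81% of the genes tested were higher and 5.41% lower. The members past it were Nlrp3 and Gsdmd, beside Zbp1 and Ripk3 with the limit just given, and 0 members were lower.

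**Figure D1:**
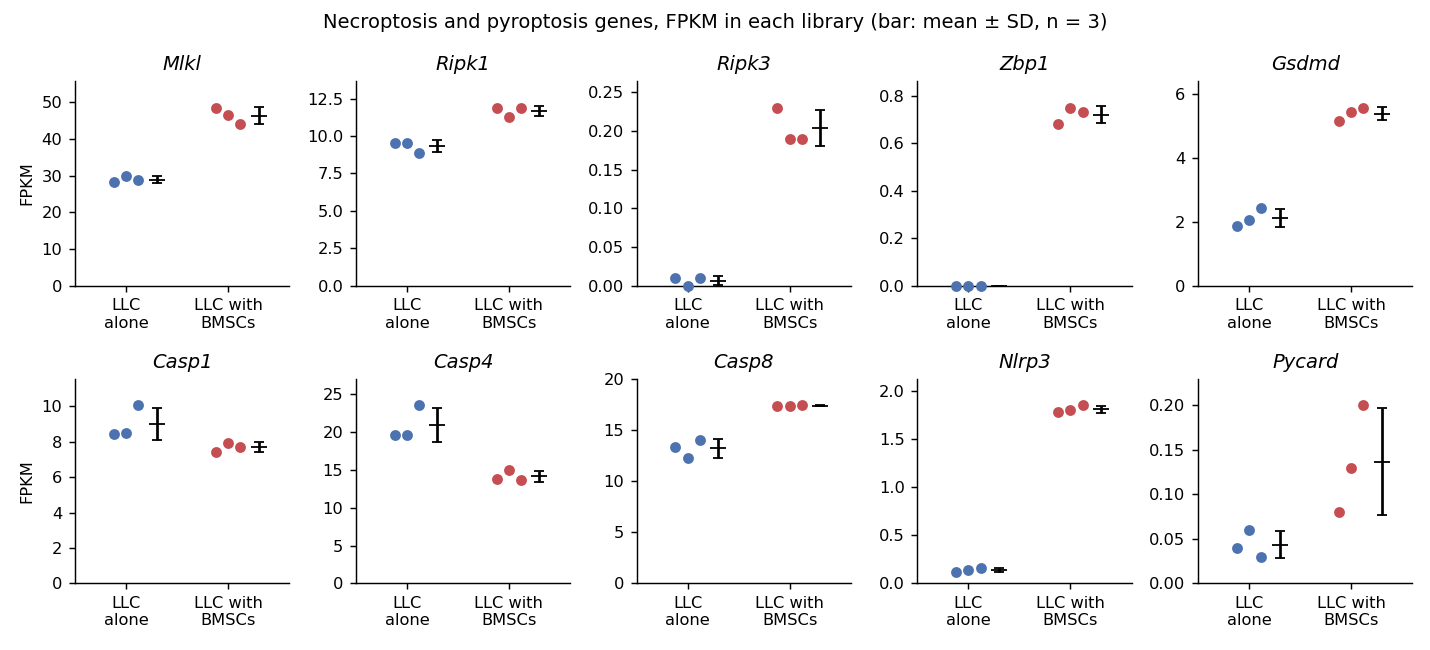
FPKM (vertical axis, starting at 0 and scaled to each gene) of the 10 genes in the 3 LLC alone libraries and the 3 LLC with BMSCs libraries, with 1 point per library and bars for the mean ± SD. Casp1 and Casp4 lie lower in LLC with BMSCs and the other genes higher, with ranges that do not overlap in any panel.

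The levels covered a wide range, and FPKM allows genes to be compared because it is set per length. In LLC alone the order of the means was Mlkl at 28.9, Casp4 at 20.9, Casp8 at 13.2, Ripk1 at 9.33, Casp1 at 8.99, Gsdmd at 2.12, Nlrp3 at 0.14 and Pycard at 0.043 FPKM, with Ripk3 at 0.0067 FPKM and Zbp1 at 0. The ranges of the neighbours Ripk1 and Casp1 overlapped, as did those of Ripk3 and Zbp1, and the others were apart. In LLC with BMSCs the order was Mlkl at 46.3, Casp8 at 17.4, Casp4 at 14.1, Ripk1 at 11.7, Casp1 at 7.69, Gsdmd at 5.39, Nlrp3 at 1.81, Zbp1 at 0.72, Ripk3 at 0.203 and Pycard at 0.137 FPKM, and only the last pair of neighbours overlapped. The terminal effector of necroptosis was thus the most abundant of the 10 genes in both groups, while its upstream kinase Ripk3 stayed at 0.23 FPKM or below in each library.

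Zbp1, the sensor of Z-form nucleic acids that recruits RIPK3, had 0 counts in each of the 3 LLC alone libraries and 27, 30 and 25 counts in LLC with BMSCs replicates 1 to 3. These counts correspond to 0.68, 0.75 and 0.73 FPKM. Set against a chosen floor of 3 counts in each LLC alone library in place of 0, Zbp1 was at least 8.34-fold higher in LLC with BMSCs (adjusted p = 0.000132 with edgeR). It entered that test only through its counts in LLC with BMSCs, so the p-value adds no support beyond the counts. Most of the level was on the shorter of its RefSeq transcripts, of 781 bases, which took 84.0% to 93.2% of the summed transcript FPKM in LLC with BMSCs, and the transcript of 1988 bases took the rest. Among the members, Zbp1 and Ripk3 had at most 1 count in any LLC alone library. In bulk libraries fewer expressing cells and less RNA per cell cannot be told apart.

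Ripk3, the kinase that phosphorylates MLKL, had 1, 0 and 1 counts in LLC alone and 19, 15 and 15 counts in LLC with BMSCs. Summed over each group and scaled to library size, this is 22.9-fold more, with a 95% counting interval of 6.02 to 195 (adjusted p = 0.000196 from the edgeR test). Like Zbp1, Ripk3 entered that test only through LLC with BMSCs, with the same limit on its p-value. The counts of LLC with BMSCs were assigned to the transcript NM_019955, and the 2 counts of LLC alone to NM_001164107. Despite the size of the ratio, the level reached was only 0.203 ± 0.0231 FPKM (SD, n = 3).

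Ripk1, the kinase that links death receptors to both survival signalling and necroptosis, measured 9.54, 9.55 and 8.89 FPKM in LLC alone and 11.9, 11.2 and 11.9 FPKM in LLC with BMSCs. Each library of LLC with BMSCs lay above each of LLC alone. On the log2 scale the difference was 0.30 ± 0.061 (standard error), with an adjusted p of 0.00327 in edgeR. With the length trend of each library removed it was 0.15, still past the threshold (adjusted p = 0.0123 from the same test). Ripk1 shares 511 exon bases with the processed pseudogene Gm17084 on the same strand and 241 with Serpinb6a on the opposite strand in GENCODE M21, and the sources used here do not say whether counting used the strand.

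Casp8, the protease that restrains necroptosis and also starts apoptosis, measured 13.4, 12.2 and 14.1 FPKM in LLC alone. In LLC with BMSCs it was at 17.4 FPKM in each of the 3 libraries. On the log2 scale it rose by 0.37 ± 0.066 (standard error), and edgeR gave an adjusted p of 0.00168. Nearly all of it was the transcript NM_009812, at 98.2% or more of the summed transcript FPKM in LLC with BMSCs.

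Mlkl, the executioner of necroptosis, measured 28.1, 29.7 and 28.9 FPKM in LLC alone and 48.4, 46.6 and 43.9 FPKM in LLC with BMSCs. The ranges were apart, and the rise of 57.9% was larger than that of Ripk1, at 23.2%, and of Casp8, at 29.4%. The ratio of Mlkl to Ripk1 within a library was 2.95, 3.11 and 3.25 in LLC alone and 4.07, 4.14 and 3.70 in LLC with BMSCs, without overlap (p = 0.1 by a two-sided exact permutation test, which cannot go lower with 3 libraries a group). The FPKM ranges of both RefSeq transcripts of Mlkl were higher in LLC with BMSCs, and NM_029005 held 93.3% to 97.2% of the level in LLC alone and 95.1% to 95.4% in LLC with BMSCs. The study itself displayed a clustering of genes that differed between these groups, from the same libraries. The direction of Mlkl, like that of the other members, is therefore not independent evidence.

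Nlrp3, the inflammasome sensor of cell stress and ion efflux, had 22, 19 and 29 counts in LLC alone and 313, 313 and 321 counts in LLC with BMSCs. In FPKM these were 0.12, 0.14 and 0.16 against 1.78, 1.80 and 1.85. This was a 12.6-fold rise, or 3.66 ± 0.13 (standard error) on the log2 scale, with an adjusted p of 5.82e-07 in edgeR. A call with a log2 fold change of at least 3 was made for 2.62% of the genes tested. Among the members with more than 3 counts in each library of both groups that were tested, Nlrp3 changed most.

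Pycard, the adaptor ASC through which NLRP3 engages caspase-1, stayed near the limit of detection. It had 4, 4 and 3 counts in LLC alone and 7, 12 and 18 counts in LLC with BMSCs, which was under the filter. The ratio of summed counts was 3.15, with a 95% counting interval of 1.57 to 6.84, which does not cover the spread between libraries. Tested without the filter, its log2 fold change was 1.62 (adjusted p = 0.024 with edgeR), against an adjusted p of 0.0597 with DESeq2. Its exons share 485 bases with a transcript on the opposite strand, Gm45205, in GENCODE M21. The sensor rose 12.6-fold while its adaptor remained at 0.20 FPKM or below in each library.

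Gsdmd, whose product forms the pores of pyroptosis, measured 1.86, 2.07 and 2.43 FPKM in LLC alone and 5.15, 5.44 and 5.57 FPKM in LLC with BMSCs. The lowest library of LLC with BMSCs lay above the highest of LLC alone by more than the whole spread of either group. Gsdmd thus rose 2.51-fold, or by 1.33 ± 0.12 (standard error) on the log2 scale, with an adjusted p of 4.89e-05 in edgeR. The RefSeq transcript accounted for 71.2% to 89.3% of the level in LLC alone and 67.2% to 91.9% in LLC with BMSCs, and the rest was on a transcript with a BGI identifier that the authors' pipeline had assembled.

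Casp1, the inflammasome caspase, measured 8.42, 8.50 and 10.04 FPKM in LLC alone and 7.40, 7.94 and 7.72 FPKM in LLC with BMSCs. The groups did not overlap, but the highest LLC alone value was that of replicate 3. The fitted log2 difference was -0.25 ± 0.092 (standard error) with a 95% interval of -0.46 to -0.036, and edgeR gave an adjusted p of 0.0446. This call did not last. It was lost under 14 of 18 alternatives, among them leaving out LLC alone replicate 3, with a log2 fold change of -0.15 (adjusted p = 0.0782), and removal of the length trends, with -0.06 (adjusted p = 0.356, both with edgeR). Without LLC with BMSCs replicate 1, 2 or 3 the adjusted p was 0.118, 0.082 or 0.107 with edgeR.

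Casp4, the receptor and protease of the noncanonical pathway, measured 19.6, 19.6 and 23.5 FPKM in LLC alone and 13.8, 15.01 and 13.7 FPKM in LLC with BMSCs. Every library of LLC with BMSCs lay below every library of LLC alone. The fitted log2 difference was -0.59 ± 0.090 (standard error), with an adjusted p of 0.000828 in edgeR. It kept its sign and its call under 18 of 18 alternatives, from -0.64 to -0.38, with the smallest fall when the length trends were removed.

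**Figure D2:**
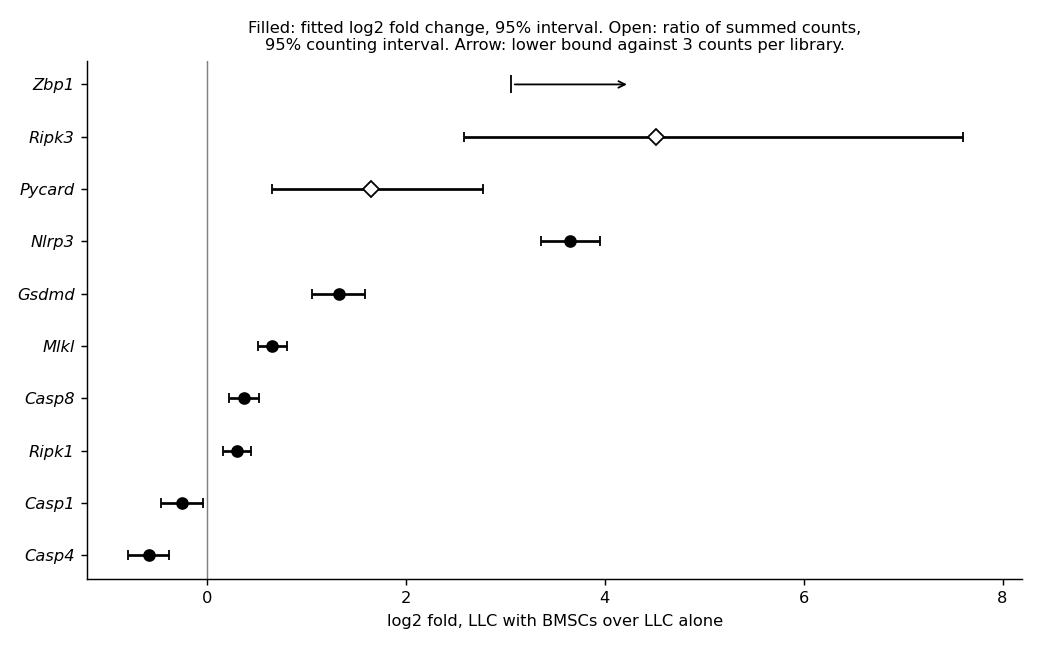
Log2 fold of LLC with BMSCs over LLC alone (horizontal axis) for the 10 genes. Filled points are fitted log2 fold changes with 95% intervals for 7 genes, open points are ratios of summed counts with 95% counting intervals for Ripk3 and Pycard, and the arrow for Zbp1 starts at its lower bound. Casp4 and Casp1 lie left of 0 and the other genes right of it.

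In the authors' transcript tables the fall of Casp4 lay in 1 of its transcripts. The tables divide the gene between the RefSeq transcript NM_007609, of 1443 bases, and an assembled transcript with a BGI identifier, of 1439 bases. NM_007609 measured 10.48, 10.08 and 10.88 FPKM in LLC alone and 10.86, 11.96 and 11.67 FPKM in LLC with BMSCs, and the groups overlapped. The assembled transcript measured 9.10, 9.55 and 12.6 FPKM in LLC alone and 2.89, 3.06 and 1.98 FPKM in LLC with BMSCs. Its share of the summed transcript FPKM was 46.5% to 53.7% in LLC alone and 14.5% to 21.0% in LLC with BMSCs, without overlap (p = 0.1 by the same exact permutation test, its lower limit). The tables give no sequence for the assembled transcript, and estimated counts divide fragments that match both, so that the split between transcripts is less certain than the total of the gene, which was a whole number in each library.

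A like pattern was not seen in the other members that have an assembled transcript. In Casp1 the assembled transcript held 38.5% to 51.8% of the level in LLC alone and 17.97% to 57.0% in LLC with BMSCs, a range set by replicate 1, which had 1.33 FPKM where replicates 2 and 3 had 4.17 and 4.40. In Ripk1 the shares of the assembled transcript overlapped, at 40.6% to 58.4% and 49.3% to 50.4%, as did those of Gsdmd.

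**Figure D3:**
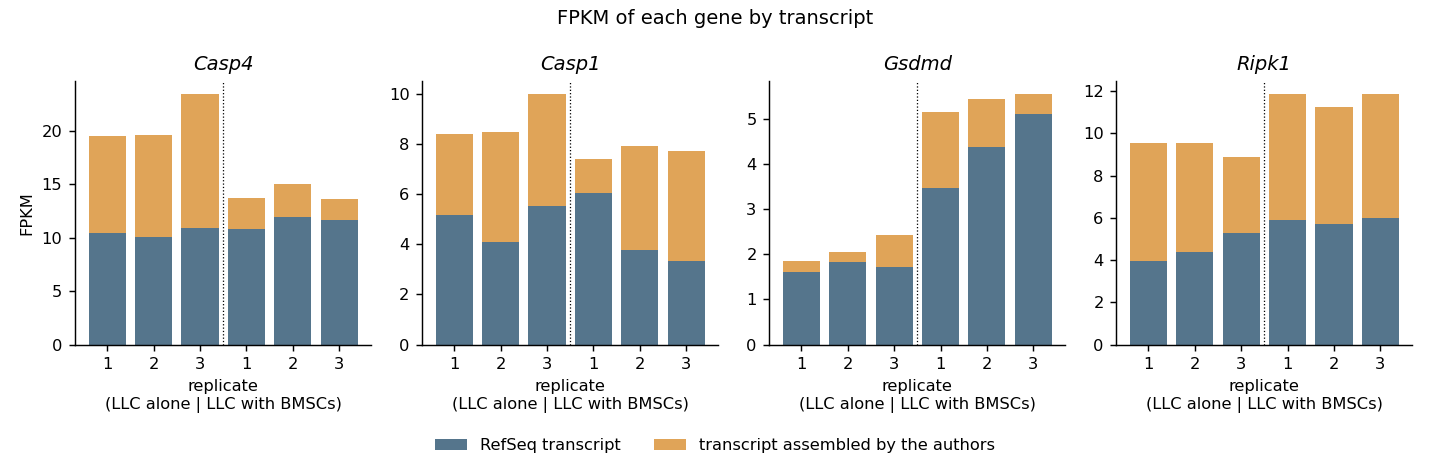
FPKM (vertical axis) of Casp4, Casp1, Gsdmd and Ripk1 in each library, with each bar divided between the RefSeq transcript and the transcript assembled by the authors. In Casp4 the RefSeq part is of like height in the 6 libraries, at 10.08 to 11.96 FPKM, and the assembled part falls from at least 9.10 to at most 3.06 FPKM.

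As Casp4 fell and Casp8 rose, these caspases changed places in the order of levels. The ratio of Casp8 to Casp4 within a library lay between 0.5985 and 0.682 in LLC alone and between 1.16 and 1.28 in LLC with BMSCs. Gsdmd, a substrate of both inflammatory caspases, rose while Casp4 fell. Its FPKM relative to that of Casp4 was 0.0949 to 0.1055 in LLC alone and 0.362 to 0.408 in LLC with BMSCs, and relative to that of Casp1, whose own call did not last, 0.221 to 0.2435 and 0.685 to 0.7215. For each of these 3 ratios the ranges of the groups lay apart. That had to follow, because the FPKM ranges of the genes already lay apart in opposite directions. The ratios are therefore a description and no further support.

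The promoters of the members were searched because many of the genes are known interferon or NF-κB targets. RefSeq windows of 300 bases on GRCm38.p6, from 250 bases before the start of transcription to 50 after it, were found for 8 of the 10 genes, in 11 windows. Zbp1 and Gsdmd had none in the table. The searches, on both strands, were for the interferon-stimulated response element (GAAA and GAAA with 2 bases of any kind between them, in 3.44% of all 32851 promoter windows), the STAT element (TTCNNNGAA, in 8.3%) and a κB element (GGG and TTTCC with 2 bases of any kind between them, in 1.63%). Casp4 and Ripk1 were the members with a match. The matches are shown because these genes moved in opposite directions, and capitals mark the matched letters, written 5′ to 3′ on the strand of the gene.
Casp4, κB match on the strand of the gene, chr9:5308746-5308775: atgagttacaGGGGATTTCCccacagcagt
Casp4, κB match on the opposite strand, chr9:5308825-5308854: cctatgctaaGGAAATGCCCagtaactttc
Ripk1, STAT match, chr13:34002756-34002785: agaagctggtTTCCCGGAAggggcggaggc
Ripk1, STAT match beside the start, chr13:34002853-34002873: acttcaaacgTTCCCGGAAat
Ripk1, interferon-stimulated match across the start, chr13:34002859-34002878: aacgttcccgGAAATCGAAA
Both genes lie on the plus strand of this build. The Casp4 matches begin 104 and 25 bases before the later of its start sites and 93 and 14 before the earlier one. Those of Ripk1 begin 108, 11 and 5 bases before 1 of its start sites, and the last pair share letters. The windows of Mlkl, Ripk3, Casp1, Casp8, Nlrp3 and Pycard held none of the searched letters. A match is a description of these windows and not a measured binding site, and its relation to the changes in level was not tested.

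The other genes of these pathways were read from 4 lists, whose counts stand against the 31.5% of all genes tested that were called higher and the 31.3% called lower. Of 20 genes that feed or restrain necroptosis, 20 were tested, of which 11 were higher and 5 lower in LLC with BMSCs, with a median log2 fold change of 0.19 against 0.01 over all genes tested. Birc3, a ubiquitin ligase that modifies RIPK1 and favours survival, rose most, from 0.34, 0.35 and 0.25 FPKM to 5.76, 5.78 and 5.68 FPKM, which is 4.39 ± 0.11 (standard error) on the log2 scale, with an adjusted p of 1.21e-07 in edgeR. Ticam1, the TRIF adaptor that carries Toll-like receptor signals to RIPK3, fell most, from 8.13, 8.79 and 8.93 FPKM to 6.63, 5.67 and 5.79 FPKM. The most abundant gene of the list, the ubiquitin ligase Stub1, fell from 72.5 ± 8.02 to 51.2 ± 1.12 FPKM (SD, n = 3 each). Further genes of the list were chosen after their values were seen. Among these, Tnfaip3, the ubiquitin-editing enzyme A20, rose by 1.85 on the log2 scale, Rnf31, the catalytic subunit of the linear ubiquitin ligase, by 1.32, and Cflar, the inhibitory partner of caspase-8, by 0.58. Otulin, which removes linear ubiquitin, stood at -0.11 (adjusted p = 0.232 with edgeR), and Ppm1b, a phosphatase that acts on RIPK3, at 0.15 (adjusted p = 0.0944 with edgeR). Ppm1b was called higher with the length trends removed, at 0.16 (adjusted p = 0.0324 with edgeR). It was also called without LLC with BMSCs replicate 1, at 0.20 (adjusted p = 0.0277 with edgeR). For the partners of Rnf31 in that ligase, the log2 fold change was 0.16 for Rbck1 (adjusted p = 0.0466 with edgeR) and -0.24 for Sharpin (adjusted p = 0.0315 with edgeR). With the length trends removed both calls were lost, at 0.040 (adjusted p = 0.608) and -0.096 (adjusted p = 0.0889) in edgeR.

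Of 18 other inflammasome sensors and regulators, 11 were tested, of which 2 were higher and 4 lower, with a median log2 fold change of -0.0089. Txnip, a thioredoxin-binding protein known to bind NLRP3, was both the most abundant and the one that fell most, from 237, 241 and 239 FPKM to 45.3, 47.4 and 46.5 FPKM. Its log2 difference was -2.39 ± 0.054 (standard error), and edgeR gave an adjusted p of 1.02e-07. Casp12, which lies in the same gene cluster as Casp1 and Casp4, rose by 0.86 (adjusted p = 0.000235 with edgeR), while Casp4 fell. Aim2, the DNA sensor, chosen after its values were seen, fell from 27.4 ± 0.538 to 19.1 ± 0.204 FPKM (SD, n = 3 each) and was far more abundant than Nlrp3 in both groups. The remaining 7 genes, among them Nlrc4, Nlrp1a, Nlrp1b and Mefv, were too low to be tested and stayed at 0.10 FPKM or below.

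Of 18 symbols for other gasdermins, executioner caspases and the membrane repair machinery, 15 were in the tables and 10 were tested, with 4 genes higher and 4 lower and a median log2 fold change of -0.054. Casp6, an executioner caspase, rose most, by 1.04 ± 0.089 (standard error) on the log2 scale, with an adjusted p of 4.24e-05 in edgeR. Dfna5, the older symbol of gasdermin E, fell most, from 5.49, 5.46 and 6.10 FPKM to 3.29, 3.28 and 3.11 FPKM. The log2 difference was -0.84, against the rise of Gsdmd. Chmp4b, an ESCRT-III subunit of the complex that repairs gasdermin and MLKL pores, was the most abundant, and fell from 123 ± 11.6 to 86.5 ± 3.58 FPKM (SD, n = 3 each).

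Of 7 inflammasome substrates and released alarmins, 6 were tested, of which 4 were higher and 0 lower, with a median log2 fold change of 4.13. Il1a and Il1b had at most 3 counts and Il33 at most 7 counts in each LLC alone library. These genes entered the test only through LLC with BMSCs, so their calls and the median of the list are a description. Il1b, the main substrate of caspase-1, went from 1, 1 and 0 counts to 603, 643 and 611 counts, a ratio of 869 with a 95% counting interval of 240 to 7183. Il1a, Il33 and Il1rn, which also belong to the interleukin-1 family, were the other genes called higher. Hmgb1, the most abundant alarmin of the list, measured 291 ± 40.4 and 296 ± 20.2 FPKM (SD, n = 3 each), with a log2 fold change of 0.0031 (adjusted p = 0.981 with edgeR). Il18, the other caspase-1 substrate, measured 1.21 ± 0.436 and 1.43 ± 0.215 FPKM and was not called (log2 fold change 0.30, adjusted p = 0.285 with edgeR). Without LLC alone replicate 3, and with the length trends removed, it was called higher, at 0.57 (adjusted p = 0.037) and 0.61 (adjusted p = 0.017) in edgeR.

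**Figure D4:**
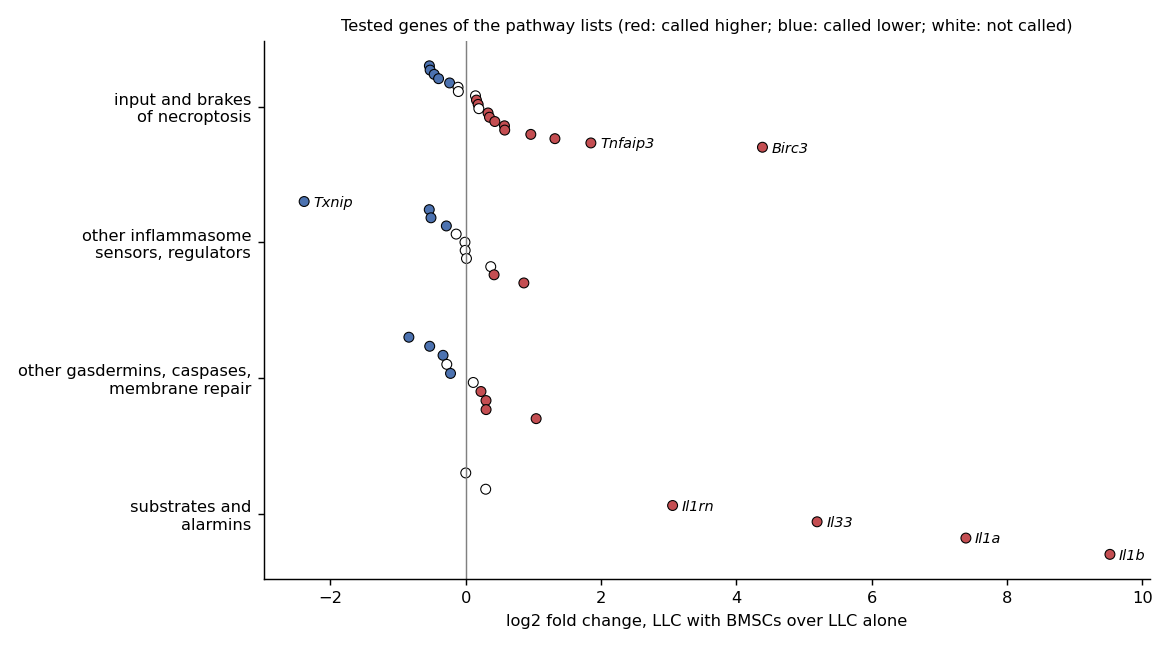
Log2 fold change of LLC with BMSCs over LLC alone (horizontal axis) for the 47 tested genes of the 4 pathway lists, with 1 point per gene. Of them 21 were called higher (red) and 13 lower (blue), where 31.5% and 31.3% of all genes tested were called. Labels name genes with a change of over 1.5 in either direction, of which Txnip is the one that fell. The points of Il1b and Il1a rest on at most 3 counts in each LLC alone library, and that of Il33 on at most 7. These genes entered the test only through LLC with BMSCs.

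Markers of other cell types moved in the same libraries. Their counts of called genes also stand against 31.5% of all genes tested called higher and 31.3% called lower. The 13 macrophage genes summed to 10.5 to 12.5 CPM (counts scaled to the total of the library) in LLC alone and 22.2 to 22.3 CPM in LLC with BMSCs. Of the 9 tested, 7 were higher and 2 lower. Among those called higher, Adgre1, Itgam, Mrc1, Ptprc and Tyrobp had at most 9 counts in each LLC alone library. They entered the test only through LLC with BMSCs, and Cx3cr1, called lower, only through LLC alone. These calls are a description and not a share to be compared with that background. The most abundant macrophage genes were Cd68, which fell from 5.55 ± 0.509 to 3.03 ± 0.356 FPKM, and Lyz2, which rose from 3.08 ± 0.574 to 4.71 ± 0.231 FPKM (SD, n = 3 each), followed by Tyrobp at 0 to 0.04 and 1.65 to 1.95 FPKM. The defining markers Adgre1, at 0 in LLC alone, Ptprc and Csf1r reached 0.42 to 0.56, 0.41 to 0.49 and 0.48 to 0.60 FPKM in LLC with BMSCs. These levels lie above those of Ripk3, at 0.19 to 0.23, and below those of Zbp1, at 0.68 to 0.75 FPKM. Itgam reached 1.14 to 1.19 FPKM there, while C1qa, C1qb and C1qc had at most 3 counts in any library. Of the neutrophil genes 10 were listed in the tables, 8 were tested and 8 were higher, but 7 of these had at most 3 counts in each LLC alone library and entered the test only through LLC with BMSCs. Their sum was 0.472 to 0.792 CPM in LLC alone and 23.3 to 26.2 CPM in LLC with BMSCs. S100a9 reached 20.6 to 25.8, S100a8 17.7 to 21.7 and Ngp 2.42 to 2.76 FPKM there, while Ly6g was at 0.11 FPKM or below throughout. For comparison, the 10 necroptosis and pyroptosis genes summed to 177 to 187 CPM in LLC alone and 231 to 240 CPM in LLC with BMSCs. That sum was led by Mlkl, Ripk1, Casp8 and Casp4, with 11893, 7247, 5792 and 2568 counts over the LLC with BMSCs libraries. Gsdmd, Nlrp3, Zbp1, Ripk3 and Pycard had only 1238, 947, 82, 49 and 37 counts there. The sum therefore does not show how these lower genes compare with the markers.

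The 13 BMSC and fibroblast genes summed to 370 to 433 CPM in LLC alone and 817 to 866 CPM in LLC with BMSCs, and 11 of the 11 tested were higher. Of these, Col1a1, Dcn and Lum had at most 8 counts in each LLC alone library. They entered the test only through LLC with BMSCs, so their calls are a description and no share to be compared with the background. Col3a1, the most abundant of the list, lay at 36.8 to 43.6 FPKM in LLC alone and at 99.0 to 102 FPKM in LLC with BMSCs. The ranges were 26.6 to 29.8 and 32.4 to 38.4 FPKM for Eng, 2.45 to 4.72 and 23.9 to 27.6 FPKM for Ly6a, and 5.46 to 7.22 and 8.45 to 9.34 FPKM for Pdgfrb. Thy1 was at 0 in LLC alone and had at most 2 counts in a library of LLC with BMSCs. By contrast, Col1a1 lay at 0.01 to 0.02 FPKM in LLC alone and at 1.85 to 2.24 FPKM in LLC with BMSCs. Dcn lay at 0.10 to 0.13 and 6.14 to 6.56 FPKM. Of 7 measured lymphocyte genes 0 were tested, with Cd79a, Cd8a and Cd3e at 0.09 FPKM or below in each library. Dendritic cell genes summed to 9.19 to 10.04 and 11.5 to 12.02 CPM, and were led by Zbtb46, at 2.29 to 3.38 FPKM. Endothelial genes summed to 0.72 to 0.943 and 0.927 to 1.14 CPM, with Pecam1 at 0.14 to 0.21 FPKM. The part of macrophage, neutrophil or BMSC transcripts in the values of Zbp1, Ripk3, Nlrp3, Pycard and Gsdmd was not tested.

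**Figure D5:**
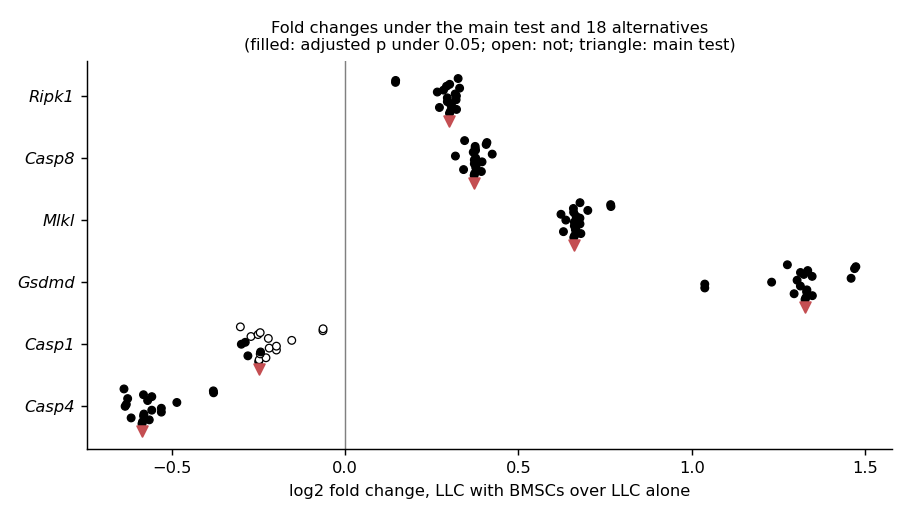
Log2 fold change of LLC with BMSCs over LLC alone (horizontal axis) for 6 members under the main edgeR test (triangle) and 18 alternatives, with filled points at an adjusted p under 0.05 and open points otherwise. Casp1 is the gene with open points, between -0.30 and -0.063, while the points of Casp4, Ripk1, Casp8, Mlkl and Gsdmd are filled.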

How the data were processed

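RNA sequencing of sorted LLC cells was compared between 3 LLC alone libraries and 3 LLC with BMSCs libraries, grouped and numbered by their labels. According to the methods of the study, poly-A RNA was sequenced as paired reads of 100 bp on a BGISEQ-500. The submitters' processing notes name HISAT, StringTie, Cufflinks and GATK and the build mm8 with no role, and the quantification program is not given in the sources used here. The authors deposited estimated counts, which are not normalized, per gene and transcript, FPKM values, scaled to length and to the library's total, and lengths in bases. Genes with 0 counts in a library are not listed in its table and were set to 0. Counts of the 10 genes were whole in 60 of 60 values.

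Estimated counts were rounded and tested over the whole table with edgeR 4.0.16 (R 4.3.3; TMM, default filter, quasi-likelihood test), and Benjamini-Hochberg values under 0.05 were called. Each standard error was derived by dividing the fold change by the root of its F statistic. Counting intervals (95%, exact binomial, scipy 1.17.1) and the floor of 3 counts cover counting error only. At these depths 3 counts are 0.065 to 0.0896 CPM. Alternatives used DESeq2 1.42.0 and limma 3.58.1. The members, lists and searched motifs were chosen with earlier results of these data known. Named pathway genes are the largest rise, the largest fall (adjusted p under 0.05, mean of at least 100 normalized counts) and the most abundant gene of each list. Named markers are the 3 most abundant of each list and the defining ones. Further markers, such as Itgam, Thy1, Col1a1 and Dcn, were named outside this rule.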

Additional observations from a re-analysis of the deposited data

How the results depend on the processing

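The 18 alternatives were DESeq2, other scalings and filters, limma on FPKM, each library left out, the replicate block, removal of length trends and the close replicate pairs summed. Mlkl, Ripk1, Gsdmd, Casp4, Casp8 and Nlrp3 kept their direction and call under 18 of 18. Ripk3 and Zbp1 kept theirs under the 15 that tested them, with the limit given above on their entry into the test. Genes called lower numbered 2 with upper-quartile scaling and with at least 10 counts in every library, and 1, Casp4, with DESeq2, library size without TMM, no filter, limma on log2(FPKM + 1) with and without its filter, limma on log2(FPKM + 0.1), length trends removed with and without the block, and the close pairs summed. With each library left out in turn, 7 to 8 members were called higher and 1 to 2 lower, and 18 to 25 pathway genes higher and 10 to 14 lower. The threshold was also set to an adjusted p of 0.001 plus a log2 change of 1 or more in size. Then 4 members were higher, 2 of them with over 3 counts in a library of both groups, and 0 lower. Of the pathway genes 8 were higher and 1 lower, with Il1a, Il1b and Il33 among the higher ones under the limit given above. On the log2(FPKM + 1) scale, which understates low genes, Nlrp3 changed by 1.30, Zbp1 by 0.78 and Ripk3 by 0.26. Pycard was called in 5 of the 7 alternatives that tested it. The same alternatives were applied to the named pathway genes that had been tested, a choice made after seeing the data. Rbck1 was lost in 11 of 18 and Sharpin in 6 of 18. Ppm1b and Il18, not called in the main test, stayed so in 15 of 18 each and were called higher in the rest. The direction turned for 2 genes that were not called. Otulin was at 0.082 with length trends removed and 0.0807 with the block as well. Hmgb1 was at -0.0285 with upper-quartile scaling, -0.0823 with the close pairs summed, and between -0.0646 and 0.13 with each library left out.

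The replicate numbers did not pair the libraries. Deviations from the group means correlated at 0.0762, -0.106 and 0.0572 between libraries of the same number. With the replicate block 7 members were higher and 1 lower, Casp1 being lost with an adjusted p of 0.059 from edgeR, and 4161 genes in all were higher and 4058 lower. LLC alone replicates 1 and 2, and LLC with BMSCs replicates 2 and 3, were closer to each other than the other pairs, with a chi-square per gene of 4.80 and 3.03 against 19.3 to 61.0, but still differed by more than sampling noise. Depth limits Zbp1, Ripk3 and Pycard, for which a few counts decide the ratio.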
